A study of Mus musculus with 6 samples.

Results

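The genes described here are the 8 structural genes of the mouse synaptonemal complex: Sycp1, Sycp2, Sycp3, Syce1, Syce2, Syce3, Tex12 and 4930447C04Rik, which is Six6os1. They were chosen by name as the known structural components of the complex, with earlier results of these data known. The naming rule used no measured value, and all 8 were found among the 54532 genes of the count table. Their RNA was counted in leptotene/zygotene (L/Z) spermatocytes, cells that have just entered meiotic prophase, sorted by flow cytometry on a Hoechst DNA stain from testes of C57BL/6J mice at 12 days postpartum (dpp). There were 3 control libraries, labelled wild type and described in the study as littermate controls, and 3 Eef1g-cKO libraries, in which floxed Eef1g was deleted by Stra8-GFPCre, a germ cell Cre that acts from the type A spermatogonia on, before the entry into meiosis. Eef1g codes for the gamma subunit of eEF1, the factor that brings aminoacyl-tRNA to the ribosome. Whether the controls carried the Cre or a floxed allele, and whether a library came from 1 animal or several, was not stated in the sources used here, so p-values measure the spread between these libraries.

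Eef1g itself was at 222, 226 and 212 CPM (reads per 1000000 reads of the scaled library) in control replicates 1 to 3 and at 139, 151 and 119 CPM in Eef1g-cKO replicates 1 to 3 (log2 fold change -0.68, SE 0.20, adjusted p = 0.029, edgeR with Benjamini-Hochberg adjustment), so its level was lower in each library labelled as deleted but was not near 0. The counts are per gene and include exons that the deletion keeps. The libraries held between 763133 and 2617648 reads assigned to genes, the fewest in Eef1g-cKO replicate 3, where 3 reads amounted to 4.63 CPM. Every member had far more reads than that in every library, the lowest being 53 reads of Syce1 in Eef1g-cKO replicate 3. Markers of early prophase were abundant in all libraries: the 8 genes of this list summed to between 7442 and 8014 CPM in controls and between 15265 and 18191 CPM in Eef1g-cKO libraries, most of it Dazl. Of the 8, all tested, 3 were higher (Dazl, Dmc1 and Ddx4) and 1 was lower (Stra8, log2 fold change -0.69, adjusted p = 0.027), and their median log2 fold change was 0.31. Of all tested genes, 7.80% were higher and 6.01% lower at an adjusted p under 0.05.

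The synaptonemal complex is the protein scaffold that joins homologous chromosomes along their length during meiotic prophase. Lateral elements containing SYCP2 and SYCP3 form along each chromosome axis, and SYCP1 molecules, the transverse filaments, reach from the lateral elements to a midline where the central element proteins SYCE1, SYCE2, SYCE3, TEX12 and SIX6OS1 hold them together. In mice, loss of a component generally leaves chromosomes unsynapsed and arrests spermatocytes in prophase. Assembly of the lateral elements starts in leptotene and of the central region in zygotene, which are the stages sorted here.

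RNA of most of these genes was more abundant in Eef1g-cKO spermatocytes. Sycp1, Sycp2, Sycp3, Syce2, Tex12 and 4930447C04Rik were higher at an adjusted p under 0.05, none was lower, and Syce1 and Syce3 did not pass the test. At an unadjusted p under 0.05 edgeR gave 6 higher and 0 lower, a rule for which the share of all genes in each direction was not counted. Many genes pass it: by edgeR p, a gene at 0.044 was at rank 2237 of the 8513 tested, in either direction. At an adjusted p under 0.05 DESeq2 and limma-voom gave 0 lower, where 7.19% and 7.69% of all tested genes were lower. Of all 8513 genes tested with edgeR, 7.80% were higher and 6.01% were lower at an adjusted p under 0.05. With the added limit of a log2 fold change over 1, 4 of the 8 were called higher (Sycp1, Sycp2, Sycp3 and 4930447C04Rik), against 3.42% of tested genes, and none was called lower, against 4.96%. In 6 of the 8 genes, every Eef1g-cKO library was above every control library, as in 16.4% of tested genes. None of the 8 had every Eef1g-cKO library below every control library, which was the case for 18.1% of tested genes. The median log2 fold change of the 8 genes was 1.01, against -0.05 over all tested genes.

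**Figure D1:**
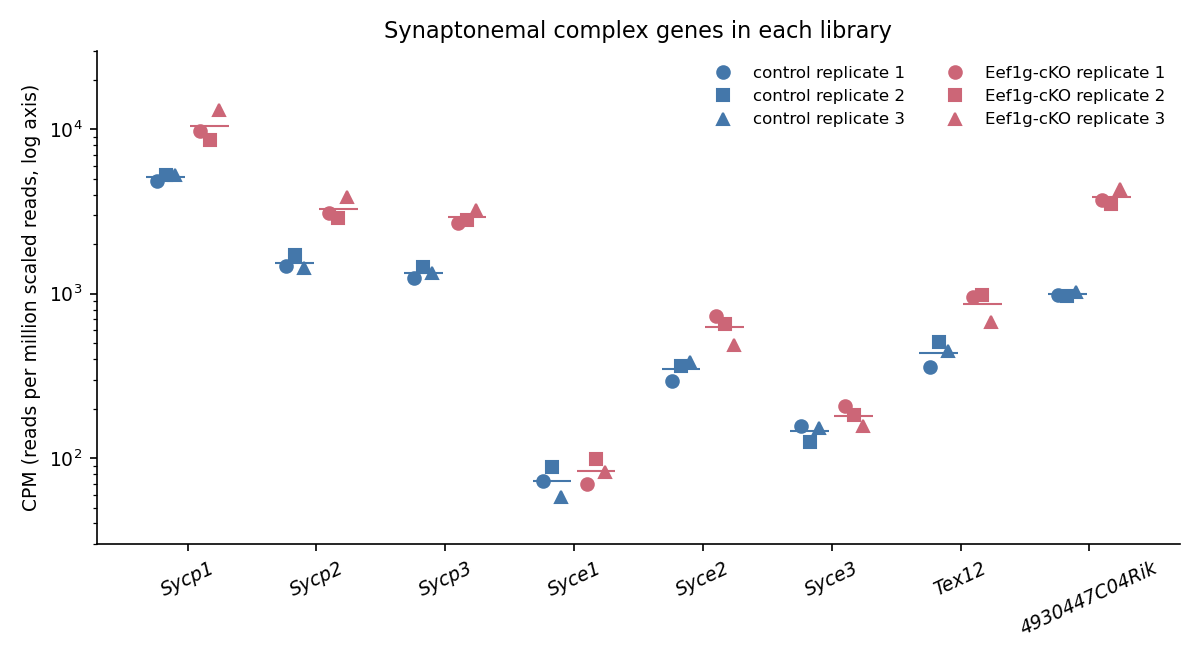
CPM (reads per 1000000 scaled reads, log axis) of the 8 genes in each of the 3 control (blue) and 3 Eef1g-cKO (red) libraries, with a line at each group mean. The groups are apart for Sycp1, Sycp2, Sycp3, Syce2, Tex12 and 4930447C04Rik, and they overlap for Syce1 and Syce3.

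Markers of several other cell types moved with genotype as well. The summed level of 12 spermatogonial markers was 1512 to 1742 CPM in controls and 705 to 846 CPM in Eef1g-cKO libraries. Of the 6 tested markers 5 were lower, where 6.01% of all tested genes were. Lin28a and Nanos3, at 0 reads in every Eef1g-cKO library, had only 5 to 18 and 2 to 6 reads in control libraries and were not tested. The sum of 9 Sertoli cell markers was 153 to 477 CPM against 26.3 to 90.6 CPM (3 of 5 tested markers lower). Amh and Gata4, at 0 reads in every Eef1g-cKO library, had at most 2 reads in any control library. The sum of 8 peritubular and stromal markers was 191 to 329 CPM against 18.5 to 80.0 CPM (4 of 5 tested lower). Markers of pachytene and later germ cells were low throughout, at 25.2 to 46.5 CPM in sum against 3.09 to 22.0 CPM for 12 genes (1 of 2 tested lower). The lower gene was Piwil1, with 34, 22 and 30 reads in controls and 0, 1 and 0 in Eef1g-cKO. For 6 Leydig cell markers the sum was 8.40 to 10.7 CPM against 1.57 to 6.47 CPM, and for 7 markers of blood cells and macrophages it was 6.72 to 77.9 CPM against 3.23 to 75.7 CPM. The part of these cell mixtures in the values below was not tested, and in bulk RNA a larger share of cells with a transcript and more of that transcript per cell cannot be told apart.

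Together the 8 genes took 0.972%, 1.09% and 1.07% of all reads in controls and 2.00%, 1.91% and 2.21% in Eef1g-cKO. Without ribosomal RNA and mitochondrial genes, whose share of a library varied, the shares were 1.14% to 1.27% and 2.09% to 2.65%. No scaling between libraries enters these shares, and their groups did not overlap. On the scaled CPM, the sum of the 8 genes was 9975 ± 543 in controls and 22286 ± 3306 in Eef1g-cKO (SD, n = 3), 2.23 times as high. The sum was 2.06 times as high for the transverse filament, 2.15 times for the lateral element and 2.82 times for the central element, where 4930447C04Rik was the gene with the most reads. Per kb of gene length, which gives this long gene model less weight, the sums were 2.06, 2.16 and 2.03 times as high, so the central element had the largest rise on one scale and the smallest on the other.

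Promoter sequence was compared as a feature that the choice of genes did not use. The windows ran from 250 bases before to 50 bases after each RefSeq transcription start (GRCm38.p6), and all 8 genes had at least 1 window, with 10 windows in all. The letters CACGTG, an E-box bound by basic helix-loop-helix factors that reads the same on both strands, were present in a window of 5 genes: Sycp1, Sycp3, Syce2, Tex12 and 4930447C04Rik. Counted by window, they were in 5 of these 10 windows and in 7.17% of the 32544 promoter windows of the same length. The 10 windows had a GC content of 54.67% to 69.33%, against a median of 53.0% over all promoters. The share was not matched for GC content. Sycp2, Syce1 and Syce3 had no match, and of these Sycp2 was higher in Eef1g-cKO and the other two did not pass the test. The motifs were chosen after the member promoters had been seen, and a match is a description of letters, not a binding site. The following stretches lie before the start and outside annotated exons of the gene itself, with each CACGTG in capitals. Exons of other genes were not checked. Sycp1, Sycp3, Tex12 and 4930447C04Rik are shown for their E-box, and Syce1 as the gene whose RNA differed least between the groups. They are Sycp1 at chr3:102936101-102936300 (minus strand), Sycp3 at chr10:88459387-88459568 (plus strand), Tex12 at chr9:50561326-50561468 (minus strand), 4930447C04Rik at chr12:72917907-72917965 (minus strand) and Syce1 at chr7:140787855-140788054 (minus strand).
Sycp1: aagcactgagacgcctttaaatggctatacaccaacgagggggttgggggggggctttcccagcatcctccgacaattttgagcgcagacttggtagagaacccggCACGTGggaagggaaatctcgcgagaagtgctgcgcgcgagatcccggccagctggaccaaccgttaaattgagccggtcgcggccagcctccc
Sycp3: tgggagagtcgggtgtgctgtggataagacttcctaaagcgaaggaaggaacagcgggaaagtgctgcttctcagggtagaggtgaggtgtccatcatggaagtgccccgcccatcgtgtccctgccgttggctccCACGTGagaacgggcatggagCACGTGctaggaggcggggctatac
Tex12: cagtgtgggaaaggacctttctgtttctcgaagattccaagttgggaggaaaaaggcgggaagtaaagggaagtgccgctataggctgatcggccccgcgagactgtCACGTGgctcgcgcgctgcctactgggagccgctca
4930447C04Rik: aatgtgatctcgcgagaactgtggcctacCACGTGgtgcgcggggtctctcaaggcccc
Syce1: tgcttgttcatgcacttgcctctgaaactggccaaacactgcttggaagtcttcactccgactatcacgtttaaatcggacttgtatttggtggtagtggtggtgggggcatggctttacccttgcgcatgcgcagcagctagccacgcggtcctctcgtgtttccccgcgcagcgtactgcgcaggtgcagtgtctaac

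Counted from the RefSeq start, the E-box began at base -94 in Sycp1, -93 in Tex12 and -171 in 4930447C04Rik, whose RefSeq start lies inside the longer span that GENCODE gives the gene. Sycp3 held a pair of E-boxes, at -64 and -43. In Syce2 the match lay at -88 from the later of its 2 RefSeq starts and within an exon annotated from the earlier one (chr8:84872158-84872187, plus strand).
Syce2: cgtttcattcagCACGTGctcggggcgggg
Of the other letters searched on both strands, TTCCCGC, part of an E2F motif, was in windows of Sycp3, Syce2 and Tex12 and in 4.63% of all windows. CNCCTCAG, described for the meiotic initiator STRA8, was in windows of Sycp1, Syce2, Tex12 and 4930447C04Rik and in 7.99% of all windows, and in Syce2 it overlapped the E2F match. CAACNG, part of a Myb motif, was in windows of Sycp1, Sycp3 and Syce3 and in 34.9% of all windows. These shares were not matched for GC content either.

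Sycp1 encodes the transverse filament, and its gene lies on chromosome 3 (102818499 to 102936100, minus strand, GRCm38; 33 exons in its longest GENCODE transcript). It had the highest level of the 8 genes, with 4815, 5253 and 5234 CPM in control replicates 1 to 3 and 9755, 8558 and 13147 CPM in Eef1g-cKO replicates 1 to 3. The lowest Eef1g-cKO library was well above the highest control library. The means were 5101 ± 248 and 10487 ± 2381 CPM (SD, n = 3), a fold of 2.06 with a 95% interval of 1.66 to 2.54 (log2 fold change 1.04, SE 0.15, adjusted p = 0.000151). The spread was wider among the Eef1g-cKO libraries, where replicate 3 was the highest. The 3 pseudogenes that overlap Sycp1 on the other strand had no reads, and Sycp1-ps1 had at most 1 read in a library.

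The lateral element genes Sycp2 and Sycp3 moved by about as much as Sycp1. Sycp2, on chromosome 2 (178345293 to 178407685, minus strand, 44 exons), encodes a large axis protein that binds SYCP3. It was at 1481, 1711 and 1430 CPM in controls and at 3091, 2886 and 3860 CPM in Eef1g-cKO. The groups did not overlap, and the fold was 2.13 (1.73 to 2.62; log2 fold change 1.09, SE 0.14, adjusted p = 7.09e-05). Sycp3, on chromosome 10 (88459569 to 88473236, plus strand, 8 exons), encodes the fibre-forming axis protein used to stain meiotic chromosomes. It was at 1237, 1454 and 1332 CPM in controls and at 2693, 2786 and 3234 CPM in Eef1g-cKO. The groups were again apart, with a fold of 2.17 (1.78 to 2.64; log2 fold change 1.11, SE 0.14, adjusted p = 3.31e-05). Chpt1, which overlaps Sycp3 on the other strand, had 125 reads or fewer in any library, against at least 1620 of Sycp3.

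Within a library, the balance of Sycp3 to Sycp2 hardly differed between genotypes. The log2 ratio of their reads per kb was 1.98, 2.00 and 2.14 in controls and 2.04, 2.19 and 1.98 in Eef1g-cKO libraries, a difference of 0.03 that was smaller than the spread in either group (SD 0.08 and 0.11, n = 3; exact permutation test, 2-sided, p = 0.6, where 0.1 is the smallest p that 3 against 3 allows). Relative to Sycp1 in the same library, the log2 ratio differed by 0.07 for Sycp2 and by 0.10 for Sycp3, both with overlapping groups.

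The central element genes did not move alike. 4930447C04Rik, on chromosome 12 (72881109 to 72940774, minus strand), encodes SIX6OS1, a coiled-coil partner of SYCE1. It was at 978, 969 and 1026 CPM in controls and at 3722, 3506 and 4356 CPM in Eef1g-cKO, means of 991 ± 30.6 and 3861 ± 442 CPM (SD, n = 3). The control libraries lay within a few percent of each other and the Eef1g-cKO libraries stood far above them. The fold was 3.90 with an interval of 3.20 to 4.75 (log2 fold change 1.96, SE 0.14, adjusted p = 1.10e-07), and its p was the smallest of all 8513 tested genes in this fit; by log2 fold change it was at rank 38. Six6, which overlaps it on the other strand, had no reads.

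Tex12, on chromosome 9 (50556819 to 50561325, minus strand, 5 exons), encodes a small protein that assembles with SYCE2 into fibres. It was at 358, 508 and 449 CPM in controls and at 949, 980 and 675 CPM in Eef1g-cKO. The groups were apart, with Eef1g-cKO replicate 3 nearest to the controls, and the fold was 1.98 (1.53 to 2.57; log2 fold change 0.99, SE 0.18, adjusted p = 0.00121). Il18, which overlaps Tex12 on the other strand, had 57 reads or fewer in any library. Syce2, on chromosome 8 (84872111 to 84888221, plus strand, 5 exons), encodes the partner of TEX12. It was at 295, 361 and 383 CPM in controls and at 727, 656 and 485 CPM in Eef1g-cKO. Replicate 3 was once more the lowest Eef1g-cKO library but still above all controls (fold 1.80, 1.39 to 2.33; log2 fold change 0.85, SE 0.18, adjusted p = 0.00367).

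Syce1 and Syce3 were the genes that did not pass the test. Syce1, on chromosome 7 (140777229 to 140787852, minus strand, 13 exons), encodes the central element protein that binds SIX6OS1. It was at 72.5, 88.2 and 57.7 CPM in controls and at 69.5, 98.4 and 81.9 CPM in Eef1g-cKO. The groups overlapped, with a log2 fold change of 0.20 (95% interval -0.40 to 0.80, SE 0.29, adjusted p = 0.70), and at a depth of 53 to 251 reads this interval allows a fold of up to 1.74. Syce3, on chromosome 15 (89390174 to 89410503, minus strand, 3 exons), encodes the small protein that recruits the other central element proteins to SYCP1. It was at 156, 125 and 153 CPM in controls and at 206, 182 and 156 CPM in Eef1g-cKO. Eef1g-cKO replicate 3 fell just below control replicate 1, and the log2 fold change was 0.33 (interval -0.11 to 0.77, SE 0.21, adjusted p = 0.34). With a GC content offset, described further on, the edgeR value was 0.63 for Syce3 (adjusted p = 0.057) and 0.38 for Syce1.

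**Figure D2:**
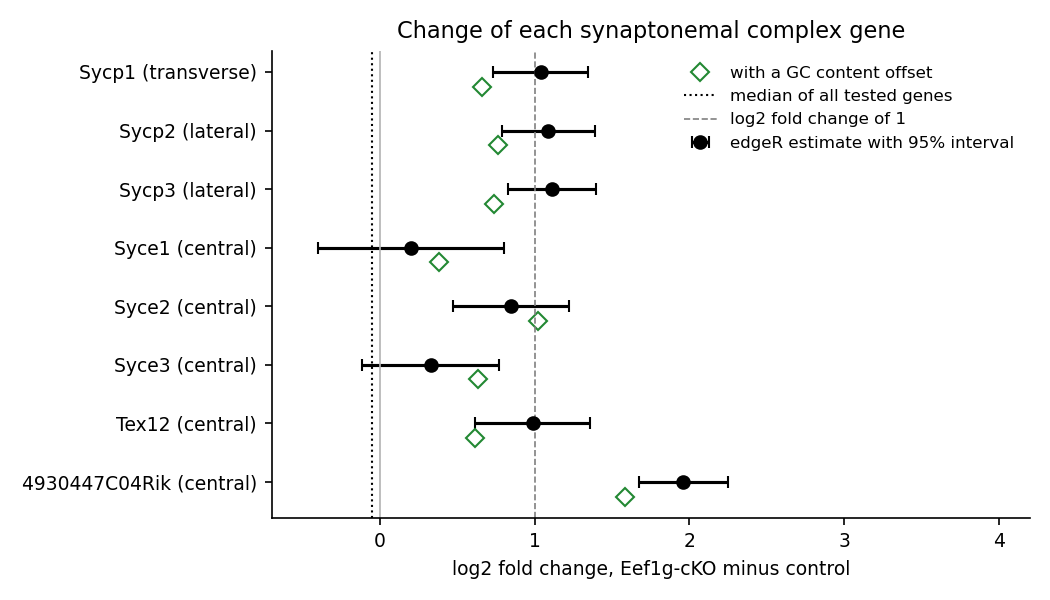
Log2 fold change (Eef1g-cKO minus control) of each gene from the edgeR fit, with its 95% interval, and the value when each library was corrected for GC content (open diamonds). The interval of 4930447C04Rik, 1.68 to 2.25, lies above those of the other genes, and the intervals of Syce1 and Syce3 include 0.

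Ratios within a library, which do not depend on how libraries are scaled, were used to compare the genes' proportions between genotypes. For the 5 central element genes together, as reads per kb, the log2 ratio to Sycp1 was -0.44, -0.38 and -0.39 in controls and -0.22, -0.08 and -0.90 in Eef1g-cKO libraries. Eef1g-cKO replicate 3 lay below all controls and the other 2 above them, so every Eef1g-cKO library was outside the control range while the mean difference was near 0 (SD 0.03 in controls and 0.44 in Eef1g-cKO, n = 3; exact permutation test, 2-sided, p = 1). Without Eef1g-cKO replicate 3 the difference was 0.25, and it was also 0.25 with all libraries and the length of the longest transcript, so whether this proportion differed was not settled by these libraries. Against the lateral element genes the ratio was -0.29, -0.34 and -0.20 in controls and -0.17, -0.24 and -0.70 in Eef1g-cKO, a difference of -0.09 (exact permutation test, p = 0.9). Adjusted over the 3 ratios of this family, every exact p was 1.

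Gene by gene, the ratios to Sycp1 moved in both directions. The log2 ratio of 4930447C04Rik to Sycp1 was -3.05, -3.19 and -3.10 in controls and -2.14, -2.04 and -2.34 in Eef1g-cKO, a difference of 0.94 with no overlap. The ratio of Syce3 to Sycp1 was -2.26, -2.70 and -2.41 in controls and -2.88, -2.87 and -3.71 in Eef1g-cKO, a difference of -0.70 with no overlap. Syce1 to Sycp1 differed by -0.81 but with overlapping groups, the lowest control at -5.21 and the highest Eef1g-cKO library at -5.16. For Syce2 and Tex12 the differences were -0.18 and -0.04. In both genes Eef1g-cKO replicates 1 and 2 lay above all controls and replicate 3 below them. The SD was 0.13 in controls and 0.60 in Eef1g-cKO for Syce2, and 0.19 and 0.61 for Tex12. The exact permutation p was 0.1 for 4930447C04Rik and Syce3, the smallest possible, and 0.35 after adjustment over the 7 ratios to Sycp1, so this design cannot pass 0.05 for any of them. These ratios do not depend on scaling but do depend on base composition, described further on: with a GC content offset the fitted log2 fold change was 0.63 for Syce3, 0.38 for Syce1 and 0.66 for Sycp1, so that Syce3 and Sycp1 then changed by nearly the same amount, while 4930447C04Rik was at 1.58.

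**Figure D3:**
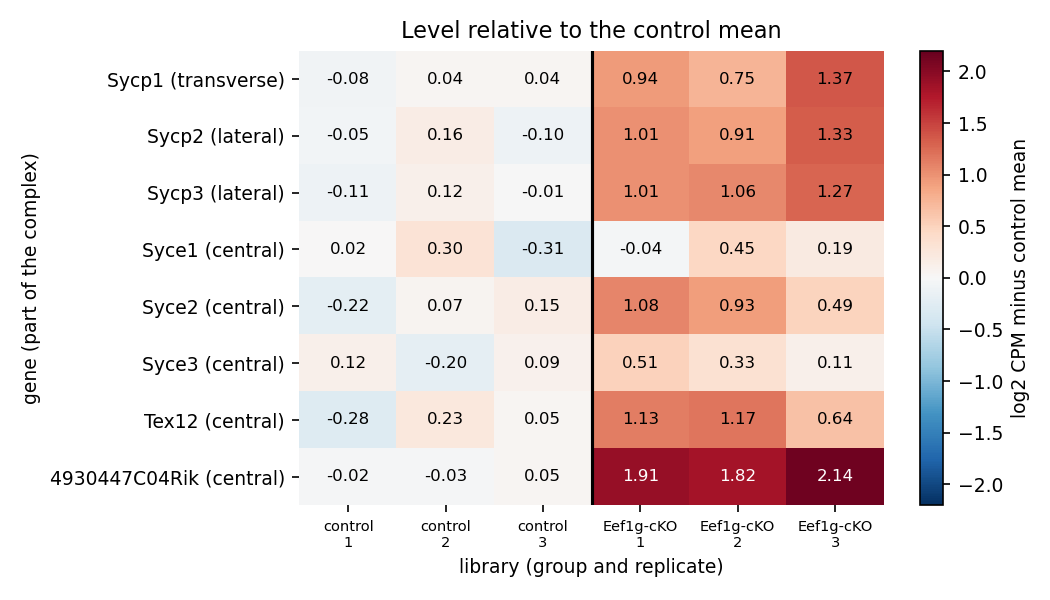
Log2 CPM of each gene in each library minus the mean of the control libraries, with the value printed in each cell. In Eef1g-cKO replicate 3, Sycp1 (1.37), Sycp2 (1.33), Sycp3 (1.27) and 4930447C04Rik (2.14) have their highest value, and Syce2 (0.49), Syce3 (0.11) and Tex12 (0.64) their lowest Eef1g-cKO value.

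The genes differed in how they varied over the Eef1g-cKO libraries. Sycp1, Sycp2, Sycp3 and 4930447C04Rik were highest in replicate 3, and Syce2, Syce3 and Tex12 were lowest in it among the Eef1g-cKO libraries, while for Syce1 replicate 3 lay between the other 2. Replicate 3 was the smallest library, with 763133 reads, and had the largest share of nuclear ribosomal RNA (9.23%, against 2.73% to 6.29% in the others). Without it, the log2 fold change was 1.17 for Tex12, 1.03 for Syce2, 0.45 for Syce3 and 0.88 for Sycp1, and the same 6 genes passed an adjusted p of 0.05. Across all 6 fits that left out 1 library, the 6 genes passed each time and Syce1 and Syce3 never did. In these fits 4.08% to 8.57% of all tested genes were higher at an adjusted p under 0.05.

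Levels of different genes were compared per kb of gene length, in reads per kb per 1000000 scaled reads. In controls the order was Sycp1 (1434 ± 69.7), Sycp3 (1061 ± 86.1), Tex12 (431 ± 74.3), Syce3 (262 ± 30.9), Sycp2 (258 ± 25.1), Syce2 (176 ± 23.2), 4930447C04Rik (166 ± 5.11) and Syce1 (49.9 ± 10.5; SD, n = 3). Syce3 overlapped Sycp2, and Syce2 overlapped 4930447C04Rik, over the 3 libraries, and the other neighbours in this order were apart. Sycp1 and Sycp3 were thus among the most abundant transcripts of the tested genes per kb, at ranks 24 and 35, while Syce1 was at rank 1035.

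In Eef1g-cKO the order per kb was Sycp1 (2949 ± 670), Sycp3 (2298 ± 229), Tex12 (854 ± 165), 4930447C04Rik (646 ± 73.9), Sycp2 (549 ± 86.1), Syce3 (328 ± 45.4), Syce2 (316 ± 63.2) and Syce1 (57.0 ± 9.92). Sycp1 and Sycp3, Tex12 and 4930447C04Rik, 4930447C04Rik and Sycp2, and Syce3 and Syce2 overlapped over the 3 libraries. Sycp1 was at rank 6 of the tested genes, Sycp3 at rank 11 and 4930447C04Rik at rank 66, from rank 296 in controls. The deposited length of 4930447C04Rik, 5981 bases, joins the exons of 9 transcripts, and its longest transcript has 2051 bases with 18 exons. With the length of the longest transcript for every gene, an alternative chosen after seeing the data, 4930447C04Rik was at 483 in controls and 1883 in Eef1g-cKO per kb, the third of the 8 genes in both groups, so its place in the order rests on the length used.

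As a share of the 8 genes' summed level per kb, 4930447C04Rik was at 4.57%, 4.00% and 4.41% in controls and at 8.04%, 7.95% and 8.20% in Eef1g-cKO libraries. Syce3 was at 7.91%, 5.61% and 7.13% in controls and at 4.82%, 4.46% and 3.18% in Eef1g-cKO. Syce1 made up 1.30% ± 0.25 of the sum in controls and 0.720% ± 0.17 in Eef1g-cKO. None of these shares was corrected for GC content. With the length of the longest transcript, 4930447C04Rik was at 11.1% ± 0.68 in controls and 19.5% ± 0.30 in Eef1g-cKO, so its share also rests on the length used. Sycp1 was the largest single part per kb of gene length, at 37.4% ± 0.76 and 36.6% ± 4.60 (SD, n = 3).

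**Figure D4:**
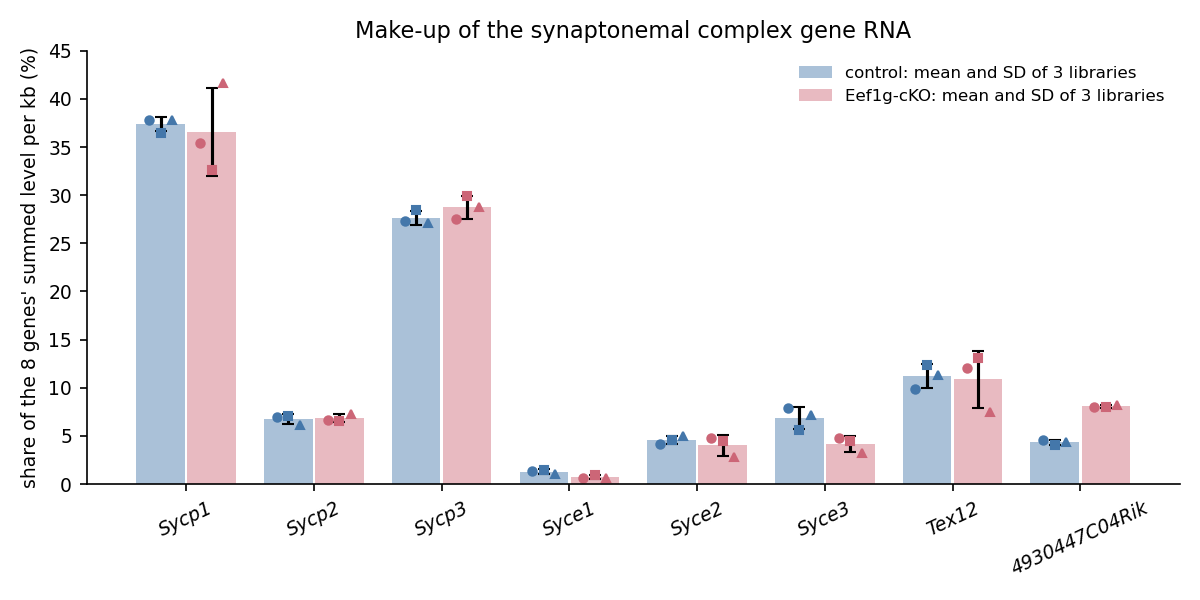
Share of each gene in the summed level per kb of the 8 genes (bars, mean; error bars, SD of 3 libraries; points, libraries). With the deposited gene lengths, 4930447C04Rik is at 4.33% in controls and 8.06% in Eef1g-cKO, Syce3 at 6.88% and 4.15%, and Sycp1 and Sycp3 together hold most of the sum in both groups. The shares are not corrected for GC content.

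The genes also differed in base composition, and composition moved with genotype over the whole table. The longest transcripts of Sycp1, Sycp2, Sycp3, Tex12 and 4930447C04Rik had a GC content of 34.3% to 36.4%, those of Syce1 and Syce2 of 49.5% and 49.3%, and that of Syce3 of 52.9%, where the median of tested genes was 47.6%. Among the 748 tested genes under 40% GC the median log2 fold change was 0.31 and 21.1% were higher at an adjusted p under 0.05. Among the 2546 genes from 45% to 50% these were -0.06 and 6.28%, and among the 1941 genes from 50% to 55% they were -0.27 and 2.89%. All 8 genes lay above the median of their GC range.

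**Figure D5:**
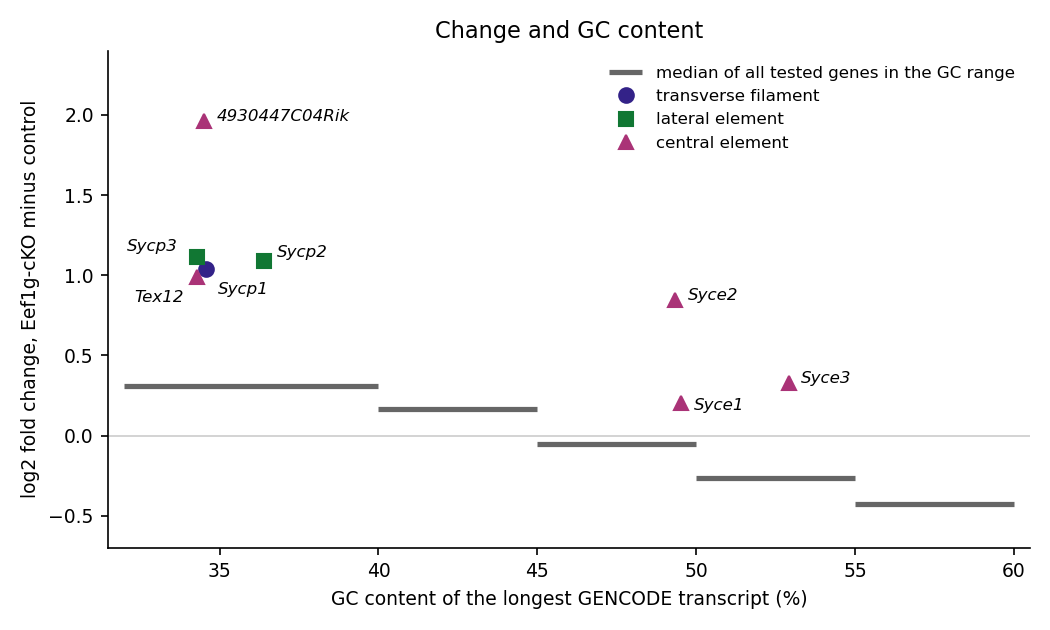
Log2 fold change of each gene (points, marked by part of the complex) against the GC content of its longest transcript, with horizontal lines at the tested genes' median of each GC range (these fall from 0.31 to -0.42). All 8 points lie above the line of their range.

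With each library corrected for the trend of counts on GC content, the values moved towards each other. The log2 fold change was 0.66 for Sycp1, 0.76 for Sycp2, 0.73 for Sycp3, 0.61 for Tex12 and 1.58 for 4930447C04Rik, lower than without the correction. It was 1.02 for Syce2, 0.63 for Syce3 and 0.38 for Syce1, higher than without it. The same 6 genes passed an adjusted p of 0.05, when 7.06% of tested genes were higher by this rule, and Syce3 was at an adjusted p of 0.057. Only Syce2 and 4930447C04Rik then had a log2 fold change over 1. With upper-quartile scaling or library totals alone, the median of all tested genes was -0.17 and -0.24, all 8 genes kept a positive log2 fold change, and 1 of them, 4930447C04Rik, stayed over a log2 fold change of 1. The genes called higher and lower were then 5.44% and 7.51% of those tested, and 3.91% and 7.55%.

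Other genes of the pathway were examined from lists of 39 genes, of which 32 were tested, 11 were higher at an adjusted p under 0.05 and none lower, against 7.80% and 6.01% of all tested genes. At an unadjusted p under 0.05, for which the share of all genes in each direction was not counted, edgeR gave 16 higher and 2 lower, Fkbp6 and Xlr3a. At least 2237 of the 8513 tested genes pass this rule in either direction. DESeq2 and limma-voom gave none lower at an adjusted p under 0.05, where 7.19% and 7.69% of all tested genes were lower. Meiotic cohesins tie sister chromatids along the axis on which lateral elements form. Of 5 tested cohesin genes 3 were higher, with a median log2 fold change of 0.90. Smc1b, a meiosis-specific subunit, was at 1106 ± 133 CPM in controls and 3278 ± 680 CPM in Eef1g-cKO (log2 fold change 1.57, SE 0.16), and Rad21l, a meiotic kleisin, at 23.4 ± 16.5 and 60.6 ± 8.21 CPM (1.35, SE 0.44, adjusted p = 0.049). Rad21l passed in only 7 of 21 other fits. Smc3 (0.44, SE 0.16) and Smc1a (-0.11, SE 0.49), which also serve mitotic cells, did not pass.

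HORMA-domain proteins mark axes that have not synapsed, and their partners start DNA break formation. Of 6 tested genes of this list 4 were higher, with a median of 0.88, where 7.80% of all tested genes were higher. Hormad1 was at 815 ± 145 CPM in controls and 2678 ± 548 CPM in Eef1g-cKO (log2 fold change 1.72, SE 0.17), and Hormad2 at 54.5 ± 7.50 and 132 ± 31.2 CPM (1.26, SE 0.28). Ankrd31 was higher by 0.69 (SE 0.19, adjusted p = 0.019) and passed in 13 of 21 other fits. Trip13, the ATPase that removes HORMADs from synapsed axes, was at -0.56 (SE 0.29, adjusted p = 0.22).

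Of 7 genes that stabilise crossover intermediates, the ZMM group, 3 were higher, with a median of 1.22. Of all tested genes, 7.80% were higher. Hfm1, a helicase, was at 383 ± 19.8 CPM in controls and 1243 ± 98.2 CPM in Eef1g-cKO (log2 fold change 1.70, SE 0.15), and Msh4 at 43.5 ± 7.26 and 129 ± 29.2 CPM (1.55, SE 0.29). Msh5, the partner of Msh4, was at 21.5 ± 1.19 and 20.0 ± 8.37 CPM (-0.13, SE 0.52, adjusted p = 0.90), and Ccnb1ip1 at 0.64 (SE 0.28, adjusted p = 0.14). Of 4 genes whose proteins act at the complex without building it, none passed in either direction. With shares of 7.80% higher and 6.01% lower over all tested genes, this says little for so few genes. Hspa2 (-0.18, SE 0.22), Psma8 (-0.18, SE 0.33), Skp1a (-0.19, SE 0.17) and Fkbp6 (-0.60, SE 0.25, adjusted p = 0.12) all had negative values.

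Paralogs of the structural genes were mostly low or did not pass. Sycp2l, a paralog of Sycp2, had no reads in any library, as had Slx, Slxl1 and Sly of the Sycp3-like family, and Syce1l was too low to test. All 10 tested genes of this list belong to the X-linked Xlr family related to Sycp3. Only Xlr was higher, where 7.80% of all tested genes were. It was at 86.6 ± 15.9 CPM in controls and 224 ± 6.16 CPM in Eef1g-cKO (log2 fold change 1.37, SE 0.22, adjusted p = 0.000456). Xlr4a was at 0.61 (SE 0.26), Xlr3c at -0.60 (SE 0.32) and Xlr3a at -1.39 (SE 0.52, adjusted p = 0.085). These genes have near-identical copies, so how reads were divided among them is uncertain.

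The genes outside the complex with the profile most like the mean of the 8 over the 6 libraries were sought among 3676 tested genes with a mean of at least 50 CPM. Likeness was the root mean square difference of log2 CPM centred on the control mean, which favours genes with the same change as well as the same spread. Among the nearest were 4933416C03Rik (0.05), Cep83 (0.06), Eif4enif1 (0.06) and Mob1b (0.08). Their log2 fold changes, 0.92 to 0.98, are part of what chose them. Among the 8 genes themselves, Sycp3 lay nearest to their common mean (0.15), and 4930447C04Rik (0.73), Syce1 (0.56) and Syce3 (0.48) lay farthest from it.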

How the data were processed

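Full-length cDNA was amplified from sorted L/Z spermatocytes, and paired-end reads of 150 bp were sequenced without molecular identifiers. Per the submitters' processing notes and the study's methods, the authors trimmed reads with fastp, aligned them to GRCm38 with HISAT2 2.2.1 and used featureCounts 2.0.6 for counting. The deposited table holds raw counts of Ensembl genes, with gene lengths in another column of the deposited table. Strand use and the handling of reads with several alignments were not stated, so genes that overlap or have near-identical copies are uncertain.

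Counts of all genes were fitted with edgeR 4.0.16 (R 4.3.3) with filterByExpr (minimum count 10, minimum total 15), TMM scaling and the robust quasi-likelihood F test of genotype, without other terms. The Benjamini-Hochberg adjustment covered all 8513 tested genes. Higher or lower means an adjusted p under 0.05, and called with the fold limit also an absolute log2 fold change over 1. CPM used TMM-scaled library sizes, and the SE was derived from the log2 fold change and its F statistic. Ratios within a library used reads plus 0.5 per kb of the deposited gene length. The fit was run beforehand on simulated counts with the same dispersion setting for every gene and no GC trend, which checks the code and not these data. The replicate numbers of the titles were not taken to pair the libraries. Promoters came from RefSeq tables (GRCm38.p6), and exons and GC content from GENCODE mouse annotation on GRCm38.

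The members, the pathway and marker lists and the tests were chosen with earlier results of these data known. The genes named are the 8 members, Eef1g, at most the 2 highest and 2 lowest tested genes by log2 fold change of each pathway list, and the 5 genes with the profile nearest to the members' mean, of which 1 is not reported here. Marker genes were named after their values were seen. Alternatives were other scalings and filters, DESeq2 1.42.0, limma-voom (limma 3.58.1), a fit without robust estimation, the replicate number as a block, GC and gene length offsets, removal of mitochondrial and rRNA genes, thinning to the smallest library and leaving out each library. Library totals ran from 763133 to 2617648 reads.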

Additional observations from a re-analysis of the deposited data

How the results depend on the processing

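All 8 genes kept a positive log2 fold change in the 15 alternative fits and the 6 fits without 1 library. The number higher at an adjusted p under 0.05 was 6 in each of these except for the replicate block with a GC content offset, where it was 5 and Tex12, at 0.60 on the log2 scale, had an adjusted p of 0.054. Of all tested genes, 3.23% (no low-count filter) to 10.4% (limma-voom) were higher by this rule over these fits. The number with a log2 fold change over 1 as well was less steady, since most values lay near this limit: it was 1 with upper-quartile scaling, 1 with library totals only, 1 with at least 10 reads in every library, 2 with a GC content offset, 2 with the replicate block and this offset, and 3 in thinned libraries. It was 6 with the gene length offset, with or without the replicate block, and 5 with no low-count filter. Leaving out 1 library gave 4 to 5. The share of all tested genes past this log2 limit was not counted in these other fits. The median log2 fold change of the 8 genes was 0.70 with the GC content offset and 0.69 with the replicate block and this offset.

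The replicate block alone left the counts at 6 and 4, with a median of 1.00, and changed no call among the 8 genes. Deviations of libraries with the same replicate number correlated at -0.03, 0.01 and -0.04, so the numbers were not taken to pair the libraries.

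Of the pathway genes, 8 to 12 were higher without 1 library, and 0 to 1 lower. Of all tested genes these were 4.08% to 8.57% and 2.52% to 6.86%. The lower gene was Xlr3a without Eef1g-cKO replicate 1 (-2.05) and, where it was again 1, Fkbp6 with at least 10 reads in every library (-0.73). Both were named after their values were seen.

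The ratios within a library were near 0 and changed sign easily. The log2 ratio of central to lateral element was 0.16 with the length of the longest transcript (added after seeing the data) and -0.187 to 0.0732 without 1 library. Central element to Sycp1 was -0.0132 in thinned libraries and -0.161 to 0.251 without 1 library, and Sycp3 to Sycp2 was -0.0278 to 0.0793 without 1 library. The cause of these changes was not tested. Depth limits Syce1 most, with 53 reads in the smallest library.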
